A study of Mus musculus with 19 samples.

Results

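Follicular helper T cells (Tfh cells) with 1 reporter allele of Bcl6 were set against Tfh cells with none. The 6 arrays were those titled as Bcl6yfp/+ or Bcl6+/+ cells of the CXCR5hi PD-1hi gate, 3 of each genotype, out of 19 arrays in the series. The remaining arrays hold reporter-sorted Tfh cells, CXCR5lo PD-1lo cells and naive CD4+ cells. They entered the statistical fit as further groups that share 1 estimate of the spread. The comparison asks how far 1 reporter allele alters expression in Tfh cells, and how narrow a bound these arrays set on any difference.

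Bcl6yfp/+ cells carried 1 Bcl6 allele with a yellow fluorescent protein (YFP) reporter and 1 allele without it, and all 3 arrays were labelled day 7 after immunization. Bcl6+/+ cells carried no reporter allele. Their numbers 1 and 2 were labelled day 10 and their number 3 day 7. All were C57BL/6J mouse cells from lymph nodes. A protocol text shared by all samples describes OT-II cells, whose transgenic T cell receptor recognises ovalbumin, that were put into congenic mice and challenged under the skin with NP-OVA in complete Freund's adjuvant (CFA). That text names only Bcl6yfp/+ donor cells, so for the Bcl6+/+ arrays the donor cells are known only by genotype. Separate animals are not stated for the arrays of a genotype, and the p-values reflect the scatter of these samples alone, and that scatter may be technical. The labels name both TRIzol and an RNeasy kit for RNA extraction, without saying which array had which.

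BCL6 is a transcriptional repressor with zinc fingers and a BTB domain. It recruits corepressors and is required for CD4+ T cells to become Tfh cells, the helper cells of B cell follicles and germinal centres. CXCR5 guides these cells towards follicles, PD-1 (Pdcd1) is an inhibitory receptor they carry at high level, and IL-21 and IL-4 are the cytokines with which they help B cells. BCL6 binds DNA motifs close to those of STAT proteins and is known to repress its own gene.

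The sequence before Bcl6 is shown because it is the gene whose allele was altered and because its level is the first readout below. RefSeq gives a pair of start sites for Bcl6 on the minus strand of chromosome 16 (GRCm38.p6). The 250 bases before each are printed 5′ to 3′, with every match to the STAT-type motif TTCNNNGAA in capitals. The motif is its own reverse complement, so both strands were covered.
Bcl6 start, chr16:23988853-23989102: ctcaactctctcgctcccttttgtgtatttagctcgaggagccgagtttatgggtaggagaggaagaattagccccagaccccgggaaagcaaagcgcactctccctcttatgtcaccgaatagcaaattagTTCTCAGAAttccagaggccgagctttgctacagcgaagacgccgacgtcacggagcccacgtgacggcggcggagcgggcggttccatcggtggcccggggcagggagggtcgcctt
Bcl6 start, chr16:23981284-23981533: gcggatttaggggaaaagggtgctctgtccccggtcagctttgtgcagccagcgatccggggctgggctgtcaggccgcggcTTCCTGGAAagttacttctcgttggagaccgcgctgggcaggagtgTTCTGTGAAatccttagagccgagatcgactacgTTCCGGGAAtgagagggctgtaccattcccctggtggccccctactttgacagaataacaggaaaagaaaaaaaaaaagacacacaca
The window at 23988853 holds 1 match and the window at 23981284 holds 3. Of 32851 windows of this length in the RefSeq table, 7.02% hold at least 1 match and 0.0274% (9 windows) hold at least 3. A match is a description of the sequence, not of binding.

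Expression is given in log2 units, and 9930 genes were tested. All 6 arrays carried the transcripts of the gate. Cxcr5 lay between 12.92 and 13.83 on the Bcl6yfp/+ arrays and between 13.62 and 13.86 on the Bcl6+/+ arrays, against 9.45 to 10.89 in CXCR5lo PD-1lo cells and 2.26 to 2.39 in naive cells. Pdcd1 lay between 13.75 and 14.22 on the Bcl6yfp/+ arrays and between 13.85 and 14.38 on the Bcl6+/+ arrays, with 10.60 to 11.99 in CXCR5lo PD-1lo cells. The T cell genes Cd3e and Cd4 were at 13.60 or above on every one of the 6 arrays. The Tfh label therefore held for each array at the level of transcripts.

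The 6 arrays did not form 1 normalized batch, and this bears on every value below. From their distributions, arrays 2 and 3 of both genotypes were normalized together, Bcl6yfp/+ number 1 shared its distribution with a naive array, and Bcl6+/+ number 1 stood alone. Bcl6yfp/+ number 1 was low throughout, with an upper quartile of 8.56 against 9.25 to 9.39 on the other 5 arrays. Its median difference from each of them ran from -0.84 to -0.78. Its absolute difference had a median of 0.874 and 0.901 from its own genotype, and of 0.818, 0.873 and 0.912 from Bcl6+/+ numbers 1, 2 and 3. Bcl6+/+ number 1 differed by a median of 0.496 to 0.563 from numbers 2 and 3 of either genotype. Results are therefore given for all 6 arrays and for numbers 2 and 3 alone.

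Among the 4 arrays normalized together, the median distance did not follow genotype. Bcl6yfp/+ number 2 and Bcl6+/+ number 2 were the closest pair, with a median absolute difference of 0.066, and the number 3 arrays of both genotypes came next at 0.087. The pairs of 1 genotype lay at 0.097 for Bcl6yfp/+ and 0.094 for Bcl6+/+. Between Bcl6yfp/+ and Bcl6+/+ arrays of the same number, 149 genes (number 2) and 158 genes (number 3) differed over 2-fold. Within a genotype, between numbers 2 and 3, the count was 105 for Bcl6yfp/+ and 213 for Bcl6+/+. With number crossed between the genotypes the counts were larger than both. They were 243 for Bcl6yfp/+ number 2 against Bcl6+/+ number 3, and 222 for Bcl6yfp/+ number 3 against Bcl6+/+ number 2. The median distances of these crossed pairs were 0.097 and 0.104. Median distances between the genotypes, from 0.066 to 0.104, thus lay on both sides of those within a genotype.

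**Figure D1:**
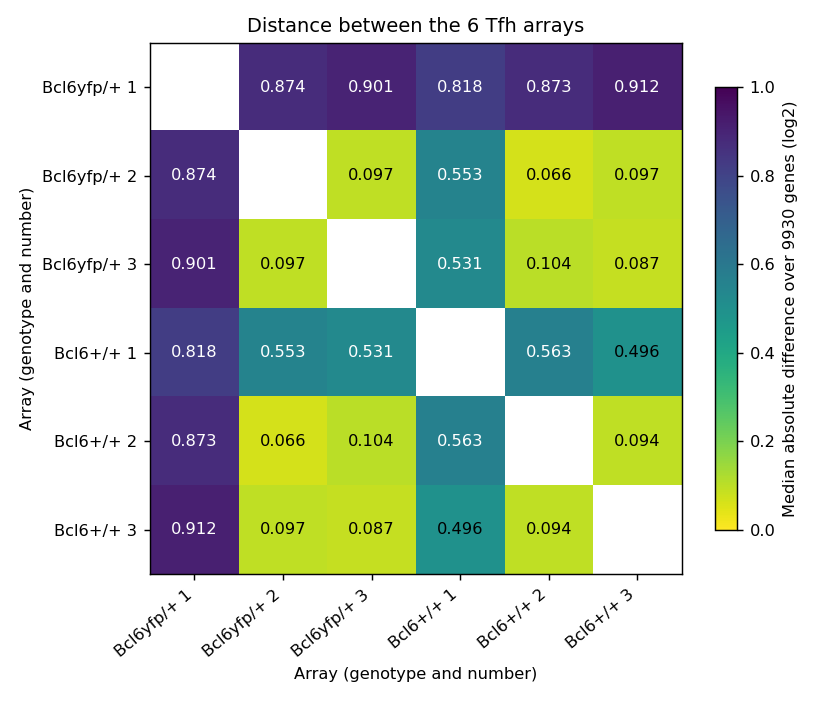
Median absolute log2 difference over 9930 genes for each pair of the 6 arrays; rows and columns are arrays by genotype and number. Numbers 2 and 3 of both genotypes lie within 0.066 to 0.104 of each other, whereas Bcl6yfp/+ number 1 lies at least 0.818 from every other array.

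Bcl6 itself had log2 values of 13.66, 14.34 and 14.45 on the Bcl6yfp/+ arrays, against 14.39, 14.23 and 14.42 on the Bcl6+/+ arrays (the brighter of the pair of probe sets that measure the gene). The low value was that of the array that was low throughout, and the groups overlapped. The difference, Bcl6yfp/+ minus Bcl6+/+, was -0.20 (SE 0.24, 95% interval -0.72 to 0.32, limma adjusted p = 0.87). Over numbers 2 and 3 it was 0.06, with an interval of -0.33 to 0.45 where the normalization set was a block. In these sorted bulk samples, fewer cells with a transcript and less of it per cell cannot be told apart.

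The second Bcl6 probe set had 9.50, 10.79 and 11.03 on the Bcl6yfp/+ arrays and 9.15, 10.24 and 10.41 on the Bcl6+/+ arrays. Its Bcl6yfp/+ value was the higher one within each number, by 0.35, 0.56 and 0.62, while the brighter probe set gave -0.73, 0.11 and 0.02. The mean difference of the second probe set was 0.51 (SE 0.46, interval -0.47 to 1.48), and it did not pass among the 18626 probe sets with 1 symbol tested singly (limma adjusted p = 0.98). With the set as a block it was 0.59 (interval 0.03 to 1.15, limma adjusted p = 1). Over all 6 arrays the direction of the Bcl6 difference thus depended on the probe set. With the set as a block both were positive, at 0.06 for the brighter and 0.59 for the second. Neither probe set passed.

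Across the transcriptome, no gene passed an adjusted p of 0.05 between Bcl6yfp/+ and Bcl6+/+ Tfh cells (0 of 9930, 0%), and limma's smallest adjusted p was 0.43, for Acpp. At an unadjusted p under 0.05 there were 287 genes (2.89%), of which 7 (0.0705%) had higher and 280 (2.82%) lower values in Bcl6yfp/+ cells. The same fit called 1049 genes (10.6%) between reporter-positive Tfh cells and CXCR5lo PD-1lo cells. The values of 455 genes (4.58%) did not overlap between the genotypes, 15 of them (0.151%) higher and 440 (4.43%) lower in Bcl6yfp/+ cells.

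That split moved with the scaling. The median difference over all genes was -0.26, and 8810 of the 9930 genes had a negative difference. After each array was centred on its median the genes whose values did not overlap numbered 230 higher and 230 lower, and after quantile normalization 183 higher and 416 lower. The median difference was then 0.02 and -0.05.

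Numbers 2 and 3 alone gave a narrower cloud around equality. The median difference was -0.003 and the median absolute difference 0.063. No gene passed among these 4 arrays (0%), with 372 (3.75%) at an unadjusted p under 0.05, and limma's smallest adjusted p was 0.13, for Igf2bp3. In all, 92 genes (0.926%) differed over 2-fold between the means. In 81 of them (0.816%) the groups also did not overlap, 18 (0.181%) with higher and 63 (0.634%) with lower values in Bcl6yfp/+ cells.

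**Figure D2:**
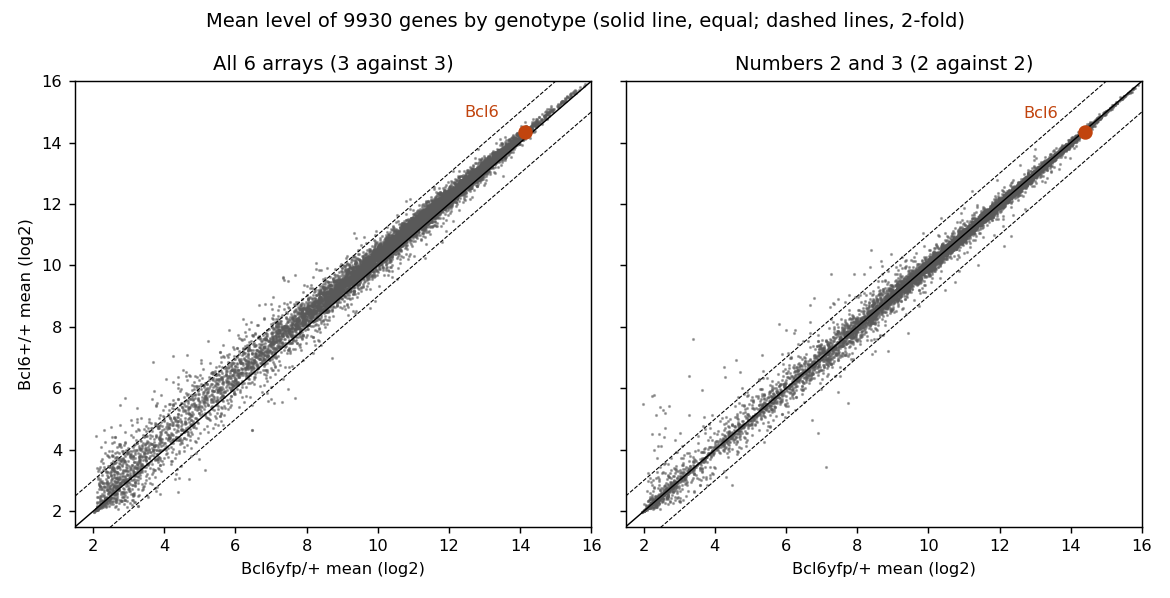
Mean log2 level of each of 9930 genes in Bcl6yfp/+ cells (x axis) and Bcl6+/+ cells (y axis), for all 6 arrays on the left and for numbers 2 and 3 on the right; solid line, equal; dashed lines, 2-fold. The cloud on the left lies above the line (median difference -0.26), and that on the right lies on it (median difference -0.003).

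The intervals set a bound on the difference between the Bcl6yfp/+ and Bcl6+/+ arrays, among which day and normalization set also varied. Over all 6 arrays the 95% interval of 4604 genes (46.4%) lay within 2-fold in both directions, that of 313 (3.15%) within 1.5-fold, and that of 8803 (88.7%) excluded a 4-fold difference. The bound tightened with level. Bounded within 2-fold were 2152 of 2622 genes (82.1%) at a mean log2 level of 12 or more, but 12 of 579 (2.07%) between 4 and 6. A lone gene of median error would have needed a difference of 2.31 log2, or 4.94-fold, to pass.

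With the normalization set as a block, so that the difference came from numbers 2 and 3 and the spread from within all sets, 8441 genes (85%) were bounded within 2-fold and 6525 (65.7%) within 1.5-fold. The median interval was then 0.36 log2 to either side, against 0.73 over all 6 arrays. A lone gene would have needed 1.55 log2, or 2.93-fold. In the fit of the 4 arrays alone 8791 genes (88.5%) lay within 2-fold, but the few degrees of freedom raised the needed difference to 5.56 log2. The number of arrays limits the precision of all these fits. An interval within 2-fold says nothing of smaller differences.

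**Figure D3:**
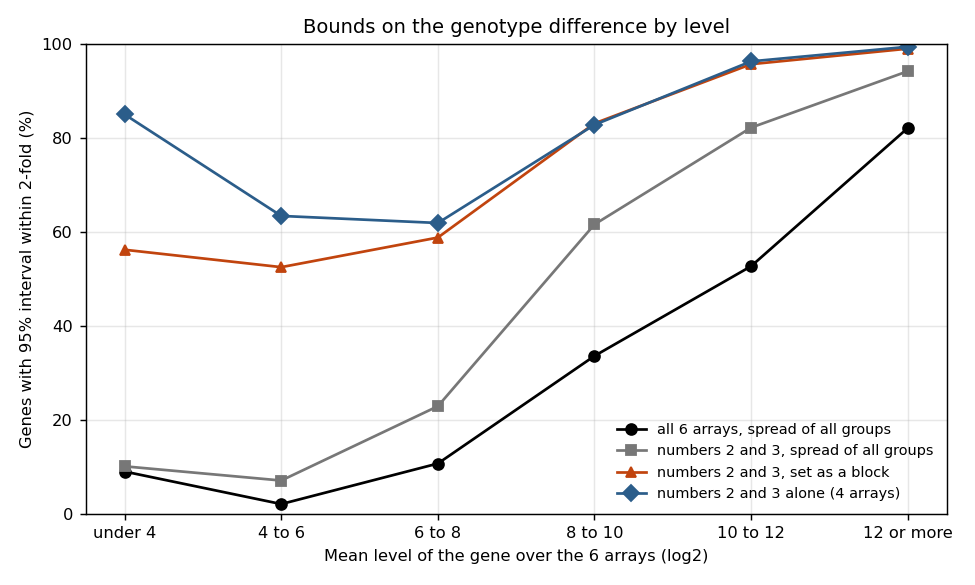
Share of genes (%) whose 95% interval for Bcl6yfp/+ minus Bcl6+/+ lies within 2-fold, by mean log2 level over the 6 arrays, for 4 fits. At level 12 or more the share is 82.1% over all 6 arrays and 99.0% with the set as a block; between 4 and 6 it is 2.07% and 52.5%.

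The genes of lowest p did not pass. Those named here were drawn only from genes whose groups did not overlap, so their separation follows from the choice. Acpp, an acid phosphatase, had 6.53, 6.84 and 6.51 in Bcl6yfp/+ cells, against 8.53, 7.74 and 7.89 in Bcl6+/+ cells. The 3 Bcl6yfp/+ values lay close together and below every Bcl6+/+ value. The difference was -1.42 (SE 0.26, interval -1.97 to -0.88, limma adjusted p = 0.43), and -1.14 over numbers 2 and 3. Rnf32, which encodes a RING finger protein, had 3.62, 2.18 and 2.93 in Bcl6yfp/+ cells and 6.45, 4.88 and 5.73 in Bcl6+/+ cells. The Bcl6yfp/+ values were near the floor of the scale, which lies about log2 2, and the difference was -2.78 (SE 0.60, limma adjusted p = 0.87). Lmbr1, the next protein-coding gene to Rnf32 in the RefSeq table, was also in this group, with 5.50, 5.86 and 5.94 in Bcl6yfp/+ cells and 7.04, 6.55 and 7.71 in Bcl6+/+ cells. Its difference was -1.34 (SE 0.39).

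Itga4, the alpha-4 integrin chain with which lymphocytes adhere to VCAM-1, had 8.63, 8.29 and 8.11 in Bcl6yfp/+ cells and 10.07, 10.44 and 9.04 in Bcl6+/+ cells. The groups did not overlap on this probe set, and the difference was -1.50 (SE 0.37, limma adjusted p = 0.87). Of its other 4 probe sets, 1 gave -1.51 at a low level and 3 gave -0.04 to 0.45 at levels below log2 4. Ccdc22, a subunit of a complex for recycling of endosomal cargo, had 9.05, 8.84 and 8.89 in Bcl6yfp/+ cells and 10.30, 10.02 and 9.61 in Bcl6+/+ cells. Acss2, which makes acetyl-CoA from acetate, had 9.42, 9.31 and 9.10 in Bcl6yfp/+ cells and 10.51, 9.85 and 10.17 in Bcl6+/+ cells. Both were well above the floor on every array, with differences of -1.05 for Ccdc22 and -0.90 for Acss2 (limma adjusted p = 0.87 for each). The other members of this group were Cnrip1, a binding partner of the cannabinoid receptor (-2.10), the claudin gene Cldn12 (-2.08), Nudt12, which cleaves NADH (-1.30), and the centrosomal gene Kiz (-1.02), with Tmod4 and Tshz3 described below. Lower values in Bcl6yfp/+ cells were the rule for all genes here (median -0.26), and in Bcl6yfp/+ number 1 above all.

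Genes with higher values in Bcl6yfp/+ cells were chosen in the same way. Among them Pi4kb, a phosphatidylinositol 4-kinase of the Golgi, had 7.97, 7.51 and 8.23 in Bcl6yfp/+ cells, against 6.90, 6.83 and 7.07 in Bcl6+/+ cells. The groups did not overlap, and the difference of 0.97 (SE 0.33, interval 0.28 to 1.66, limma adjusted p = 0.87) ran against the downward shift of Bcl6yfp/+ number 1. A second Pi4kb probe set near the floor gave -0.13. Megf9, a membrane protein with EGF-like repeats, had 8.0, 7.06 and 7.45 in Bcl6yfp/+ cells and 6.48, 6.93 and 6.69 in Bcl6+/+ cells, a difference of 0.80 (SE 0.28). Pex5, the import receptor of peroxisomes, had 8.10, 8.08 and 8.16 in Bcl6yfp/+ cells, against 7.70, 7.63 and 7.84 in Bcl6+/+ cells. Its difference was only 0.39 (SE 0.24, limma adjusted p = 0.87), yet the 3 Bcl6yfp/+ values were almost equal. The rest of this group had differences from 0.12 to 0.65 apart from 1 probe set annotated to a microRNA locus. They were Paqr3, Alms1, Tnfrsf19, Tet1, Lamtor1, Swap70, Star and Pard6g, of which Tnfrsf19, Tet1 and Star lay below log2 4 on all 6 arrays.

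**Figure D4:**
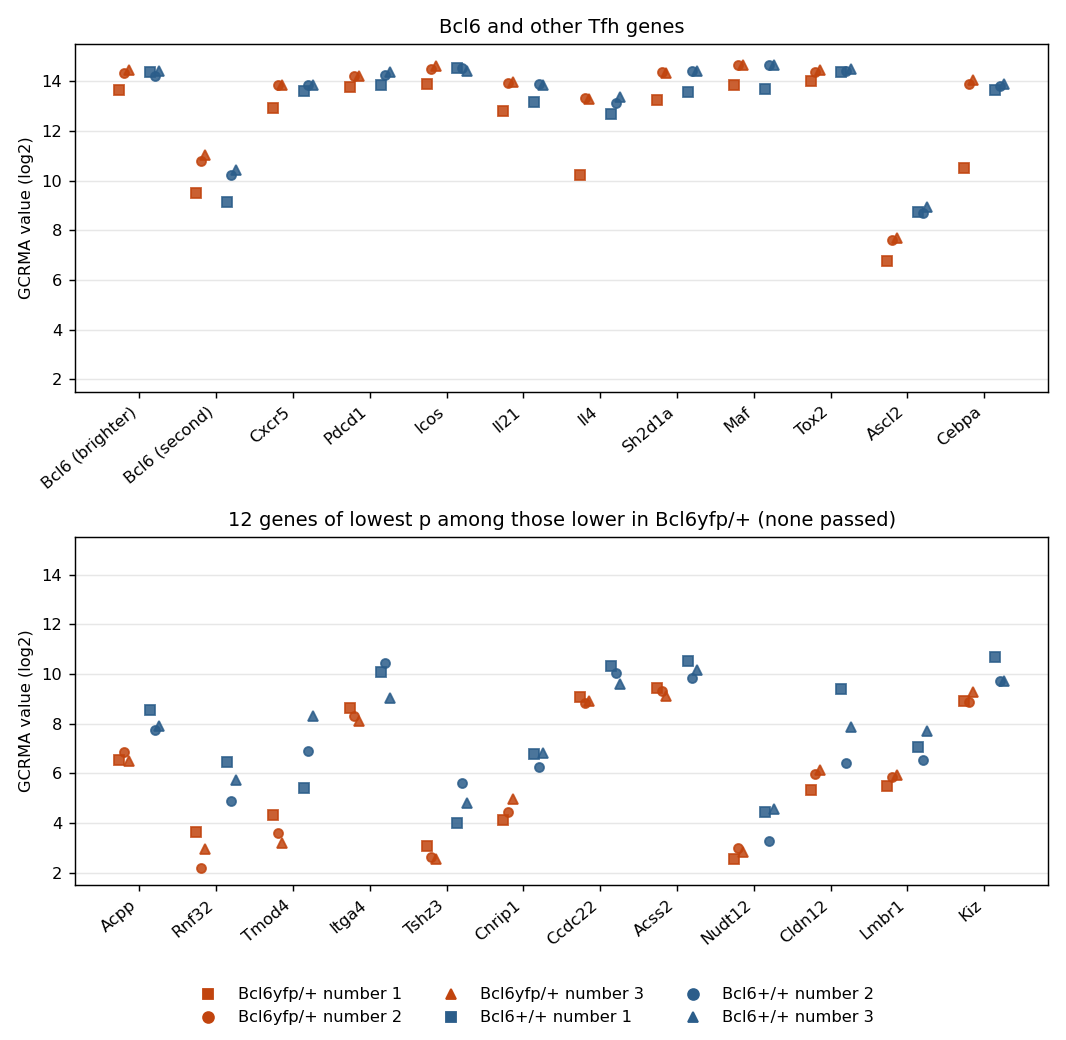
Log2 value on each array, Bcl6yfp/+ left and Bcl6+/+ right for each gene; marker shape gives the number. Above are Bcl6 by both probe sets and other Tfh genes, of which Ascl2 does not overlap between the genotypes. Below are the 12 genes of lowest p chosen among those lower in Bcl6yfp/+ cells without overlap, and none passed.

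The fit with the normalization set as a block called 4 genes, all lower in Bcl6yfp/+ cells: Tmod4, Tshz3, Capn3 and Tfpi. Capn3 and Tfpi are named for this count, after their values were seen. Tmod4, a tropomodulin that caps actin filaments of muscle, had 4.30, 3.58 and 3.19 in Bcl6yfp/+ cells and 5.41, 6.91 and 8.30 in Bcl6+/+ cells. Its block difference was -4.22 (SE 0.42, limma adjusted p = 0.014), against -3.18 (adjusted p = 0.87) over all 6 arrays. Tshz3, a zinc finger transcription factor, had 3.09, 2.63 and 2.56 in Bcl6yfp/+ cells and 3.99, 5.60 and 4.80 in Bcl6+/+ cells. Its block difference was -2.60 (SE 0.23, limma adjusted p = 0.0097). Both genes were low or near the floor in Bcl6yfp/+ cells on all 3 arrays, and number 1 showed the smaller gap.

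Capn3, a calpain protease best known from muscle, had 8.25, 4.36 and 4.16 in Bcl6yfp/+ cells and 7.65, 6.65 and 6.74 in Bcl6+/+ cells. Tfpi, the inhibitor of the tissue factor pathway of clotting, had 5.71, 6.08 and 6.39 in Bcl6yfp/+ cells and 5.44, 7.83 and 7.81 in Bcl6+/+ cells. Their block differences were -2.43 (SE 0.22, limma adjusted p = 0.0097) and -1.58 (SE 0.16, adjusted p = 0.014). In number 1 both genes had the opposite direction, so the groups overlapped over all 6 arrays. None of the 4 genes passed in the fit of the 4 arrays alone (adjusted p of 0.41 to 0.67), and the block fit took its spread from within all sets. The second probe set of Capn3 did not show the difference, at -0.02 over numbers 2 and 3, and was at 2.14 or below on those 4 arrays.

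Comparing arrays of the same number, 41 genes (0.413%) differed over 2-fold in one direction in both numbers 2 and 3, of which 6 (0.0604%) had higher and 35 (0.352%) lower values in Bcl6yfp/+ cells; 3 more went opposite ways. In 20 of the 35, and in none of the 6, number 1 also differed over 2-fold the same way. Between the number 1 arrays, however, 3866 of all genes (38.9%) differed over 2-fold, with a median difference of -0.783. Lower values were thus the rule in number 1. The following genes were chosen from these 41 after their values were seen. Igf2bp3, an RNA-binding protein, had 3.79, 2.25 and 2.24 in Bcl6yfp/+ cells and 4.84, 5.83 and 5.68 in Bcl6+/+ cells. Spock2, an extracellular matrix proteoglycan, had 7.54, 7.11 and 7.40 in Bcl6yfp/+ cells and 9.34, 10.23 and 9.21 in Bcl6+/+ cells, so that no array crossed. Icosl, the ligand of ICOS, had 7.34, 5.83 and 6.18 in Bcl6yfp/+ cells and 8.71, 7.70 and 8.12 in Bcl6+/+ cells. On these probe sets all 3 had lower values within every number, by 1.05 or more. Other Igf2bp3 probe sets differed in number 1. Bcl6yfp/+ was higher at 7.26 against 4.93 and 4.11 against 3.23, and lower at 2.48 against 2.84 and 4.48 against 6.84. Over numbers 2 and 3 all of these were lower in Bcl6yfp/+ cells. In the other direction, Cd55, a complement regulator, had 4.90, 7.12 and 6.70 in Bcl6yfp/+ cells, against 7.58, 4.83 and 4.30 in Bcl6+/+ cells. Number 1 went the opposite way to numbers 2 and 3 by a similar amount. Between reporter-sorted arrays of day 10 and day 7, Igf2bp3 differed by -3.37, Spock2 by 3.98, Icosl by 4.65 and Cd55 by -3.65 log2 (limma adjusted p of 0.029, 0.0024, 0.00075 and 0.01). Of the 3 Bcl6+/+ arrays 2 were labelled day 10, and the part of day in these 4 genes was not tested.

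Of 28 tested genes on a list of Tfh genes, 0 passed in either direction, as over all genes (0%). The median difference was -0.19 over all 6 arrays, beside -0.26 for all genes, and 0.02 over numbers 2 and 3. The intervals of 17 of the 28 lay within 2-fold, beside 46.4% of all genes. With the set as a block it was 22 of the 28, beside 85% of all genes. Of the receptors of the gate, Cxcr5 had 12.92, 13.83 and 13.83 in Bcl6yfp/+ cells and 13.62, 13.83 and 13.86 in Bcl6+/+ cells, a difference of -0.25 (SE 0.30, interval -0.89 to 0.40). Pdcd1 had 13.75, 14.21 and 14.22 in Bcl6yfp/+ cells and 13.85, 14.27 and 14.38 in Bcl6+/+ cells, a difference of -0.11 (SE 0.32, interval -0.79 to 0.58). Since the cells were sorted on both proteins, these levels describe the gate as much as the genotype.

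Among cytokines, Il21 had 12.82, 13.92 and 13.95 in Bcl6yfp/+ cells and 13.17, 13.90 and 13.85 in Bcl6+/+ cells on its brighter probe set. This probe set was alike in numbers 2 and 3 (difference 0.06). The second Il21 probe set had 9.12, 9.55 and 9.89 in Bcl6yfp/+ cells and 10.12, 9.83 and 10.66 in Bcl6+/+ cells. On it Bcl6yfp/+ was lower within every number, though the groups overlapped. The difference was -0.68 over all arrays and -0.53 over numbers 2 and 3. Il4 had 10.23, 13.31 and 13.28 in Bcl6yfp/+ cells and 12.69, 13.11 and 13.38 in Bcl6+/+ cells. The Il4 difference of -0.79 (SE 0.56, limma adjusted p = 0.87) came with the low number 1 array, and over numbers 2 and 3 it was 0.05. Among transcription factors, Maf differed by 0.00 and Tox2 by -0.02 over numbers 2 and 3, and Cebpa had 10.49, 13.89 and 14.03 in Bcl6yfp/+ cells against 13.66, 13.82 and 13.87 in Bcl6+/+ cells. Its difference of -0.98 (SE 0.84) again came with number 1.

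Ascl2, a transcription factor that induces CXCR5, was the 1 Tfh gene of the list of 28 whose groups did not overlap, beside 4.58% of all genes. It had 6.77, 7.60 and 7.69 in Bcl6yfp/+ cells, against 8.72, 8.70 and 8.93 in Bcl6+/+ cells, and the difference was -1.43 over all 6 arrays and -1.17 over numbers 2 and 3. Its SE was 1.47, since Ascl2 varied widely in other groups, and the interval ran from -4.54 to 1.68 (limma adjusted p = 0.87). Between reporter-sorted arrays of day 10 and day 7 it differed by 5.12 log2. Its second probe set had 3.93, 3.19 and 3.32 in Bcl6yfp/+ cells and 7.96, 4.43 and 4.45 in Bcl6+/+ cells. The part of day in this difference was not tested.

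Of 19 tested genes reported to be repressed by BCL6, 0 passed, as over all genes (0%). The median difference was -0.02 over all 6 arrays, beside -0.26 for all genes, and -0.02 over numbers 2 and 3. After each array was centred on its median it was 0.27, beside 0.02 for all genes. Prdm1, which encodes the opposing factor BLIMP-1, had 3.01, 2.13 and 2.11 in Bcl6yfp/+ cells and 2.19, 4.36 and 2.14 in Bcl6+/+ cells. It was at the floor except on 1 array of each genotype. Klf2, which holds T cells in recirculation, had 8.43, 8.65 and 8.54 in Bcl6yfp/+ cells and 8.90, 9.40 and 8.66 in Bcl6+/+ cells. The groups did not overlap, though Bcl6yfp/+ number 2 and Bcl6+/+ number 3 were nearly equal, and the difference was -0.45 (SE 0.53, limma adjusted p = 0.87). Ccr7, the receptor for T cell zone chemokines, had 8.67, 10.47 and 10.18 in Bcl6yfp/+ cells and 8.55, 10.32 and 8.86 in Bcl6+/+ cells, a difference of 0.53 (SE 1.11). The largest differences on the list were those of the cell cycle inhibitor Cdkn1a (-1.86) and the cytokine signalling inhibitor Cish (-1.22), and both came from high values on Bcl6+/+ number 1, at 7.67 for Cdkn1a and 6.05 for Cish. Of these 19 genes, 6 were bounded within 2-fold, beside 46.4% of all genes. With the set as a block it was 9 of the 19, beside 85% of all genes.

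Of the 16 tested corepressors and partners of BCL6, 0 passed. Their median difference was -0.17 over all 6 arrays, beside -0.26 for all genes, and 0.04 over numbers 2 and 3. Bcor, the BCL6 corepressor, had 10.77, 12.22 and 12.37 in Bcl6yfp/+ cells and 11.95, 12.22 and 12.30 in Bcl6+/+ cells. The deacetylase Hdac3 had 9.66, 10.62 and 10.80 in Bcl6yfp/+ cells and 9.59, 10.49 and 10.79 in Bcl6+/+ cells. Over numbers 2 and 3 the differences were 0.03 for Bcor and 0.07 for Hdac3. Hdac7 (-0.43, SE 0.31) and Mta3 (-0.42, SE 0.21) had the largest differences of this list, and over numbers 2 and 3 these were 0.04 and -0.09.

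Genes of other helper lineages were measured because BCL6 is known to oppose those programmes, and none passed. Over all 6 arrays the median difference was 0.01 over 16 Th1 and cytotoxic genes and -0.12 over 3 Th2 genes. It was 0.19 over 4 Th17 genes and 0.01 over 10 regulatory T cell genes, beside -0.26 for all genes. Over numbers 2 and 3 these medians were -0.06, 0.05, 0.19 and -0.03, beside 0 for all genes. Tbx21, the Th1 master regulator, was at 3.09, 2.16 and 2.14 in Bcl6yfp/+ cells and at 2.16, 2.26 and 2.16 in Bcl6+/+ cells, all near the floor. Foxp3, that of regulatory T cells, had 5.47, 2.93 and 2.91 in Bcl6yfp/+ cells and 5.88, 3.70 and 2.94 in Bcl6+/+ cells, so that it was higher on both number 1 arrays. Gpr83, a receptor known from regulatory T cells, had 5.37, 7.06 and 7.58 in Bcl6yfp/+ cells and 8.54, 8.96 and 8.60 in Bcl6+/+ cells. Its groups did not overlap, and the difference was -2.03 (SE 0.67, interval -3.45 to -0.62, limma adjusted p = 0.87) over all 6 arrays and -1.46 over numbers 2 and 3.

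Of 18 co-stimulatory and inhibitory receptors and 19 chemokine and homing receptors, 0 passed. Their medians were -0.10 and -0.13 over all 6 arrays, beside -0.26 for all genes, and 0.01 and -0.02 over numbers 2 and 3. Icos had 13.90, 14.51 and 14.62 in Bcl6yfp/+ cells and 14.52, 14.53 and 14.40 in Bcl6+/+ cells, and its interval ran from -0.58 to 0.29. Cxcr6, a chemokine receptor of effector T cells, had 6.15, 7.92 and 7.84 in Bcl6yfp/+ cells and 8.40, 8.74 and 8.0 in Bcl6+/+ cells. It did not overlap between the groups, with a difference of -1.08 (SE 0.62, limma adjusted p = 0.87) over all 6 arrays and -0.49 over numbers 2 and 3. Its second probe set had 4.29, 3.39 and 3.93 in Bcl6yfp/+ cells and 2.36, 4.97 and 3.38 in Bcl6+/+ cells, and these overlapped with a difference of 0.30.

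Housekeeping lists had negative medians over all 6 arrays, as did all genes, of which 8810 of 9930 were negative with a median of -0.26. All 20 oxidative phosphorylation genes and all 14 glycolysis genes had negative differences over all 6 arrays, with medians of -0.30 and -0.24, and medians of 0.01 and -0.02 over numbers 2 and 3. The medians of 45 cell cycle genes were -0.22 and 0.04. On single arrays the cell cycle genes averaged 9.03, 9.21 and 9.32 in Bcl6yfp/+ cells and 10.18, 9.14 and 9.31 in Bcl6+/+ cells, with the high mean on Bcl6+/+ number 1. The 28 interferon-induced genes went the other way, with a median of 0.12 and 17 of 28 positive, and 0.06 over numbers 2 and 3. Among 35 immediate early genes, Fosb, a subunit of the AP-1 factor, had 10.10, 2.23 and 2.51 in Bcl6yfp/+ cells and 11.17, 2.23 and 4.37 in Bcl6+/+ cells. Nr4a2, a nuclear receptor induced by activation, had 8.74, 2.86 and 2.70 in Bcl6yfp/+ cells and 10.65, 3.86 and 2.86 in Bcl6+/+ cells. Both were high on the number 1 arrays of either genotype and low on the rest.

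**Figure D5:**
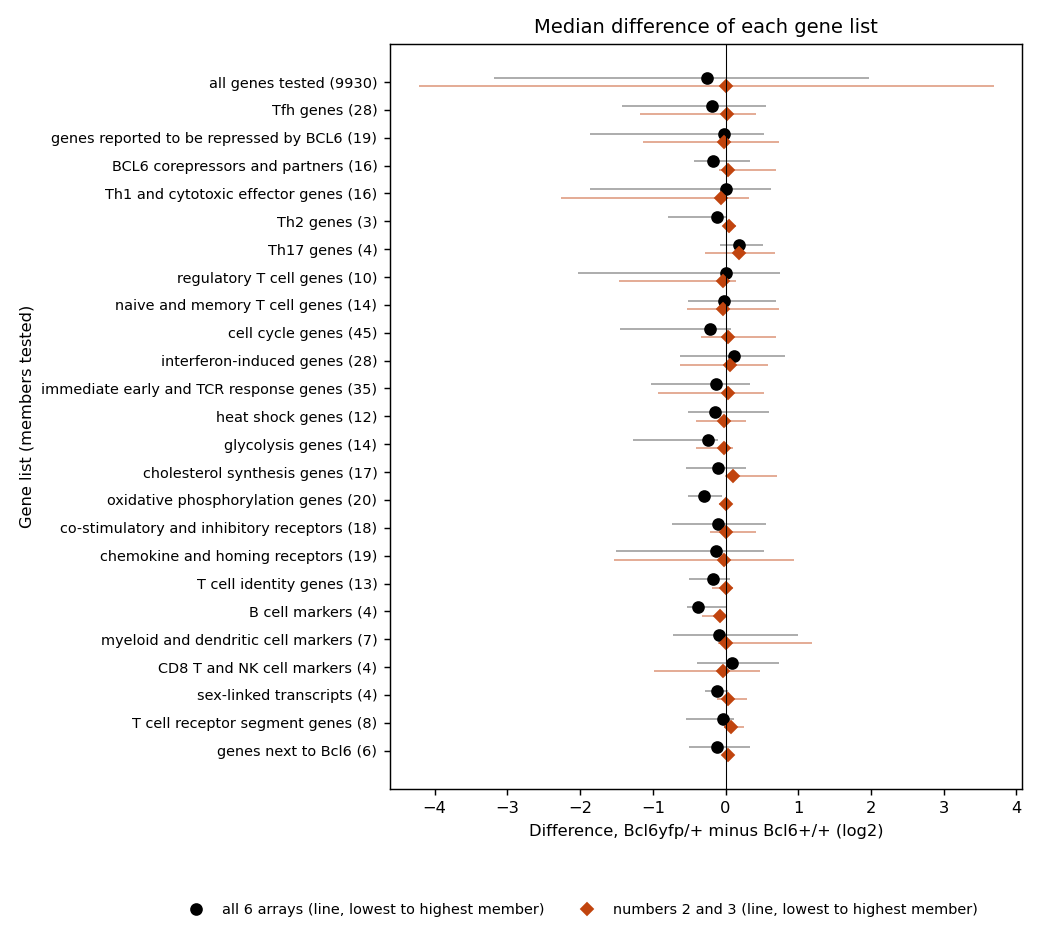
Median log2 difference, Bcl6yfp/+ minus Bcl6+/+, of each gene list with at least 3 tested members, over all 6 arrays (circles) and numbers 2 and 3 (diamonds); lines run from the lowest to the highest member. Over numbers 2 and 3 the medians lie between -0.07 (B cell markers) and 0.19 (Th17 genes), with all genes at 0.

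Genes next to Bcl6 were examined since a reporter allele alters the locus. Of the 20 genes on each side in the RefSeq table, 9 had a probe set and 6 were tested, with 0 called. Their median difference was -0.12 over all 6 arrays, beside -0.26 for all genes, and 0.03 over numbers 2 and 3. St6gal1, a sialyltransferase, had 12.44, 13.71 and 13.78 in Bcl6yfp/+ cells and 12.86, 13.75 and 13.71 in Bcl6+/+ cells. Lpp, which encodes an adaptor of focal adhesions, had 12.73, 12.82 and 13.17 in Bcl6yfp/+ cells and 12.92, 12.91 and 12.85 in Bcl6+/+ cells. On this probe set, the brightest of Lpp, the difference of 0.01 (interval -0.40 to 0.43) excluded 2-fold. Other Lpp probe sets gave 0.03 to 1.53. The one at 1.53 gave -0.01 over numbers 2 and 3. Another had 5.0, 3.63 and 3.55 in Bcl6yfp/+ cells and 2.25, 2.62 and 2.77 in Bcl6+/+ cells. It did not overlap, with 1.52 over all 6 arrays and 0.89 over numbers 2 and 3. For Rfc4 (-0.49, interval -1.70 to 0.71), a subunit of the clamp loader of DNA replication, the interval reached past 2-fold.

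Most transcripts of other cells were low, with exceptions. Over 17 B cell markers the mean log2 level was 3.36 to 3.43 on the Bcl6yfp/+ arrays and 3.43 to 3.58 on the Bcl6+/+ arrays, and the defining marker Cd79a was at 2.28 or below on all 6. Over 8 germinal centre B and plasma cell markers it was 2.30 to 3.02 on the Bcl6yfp/+ arrays and 2.37 to 3.09 on the Bcl6+/+ arrays, and over 22 myeloid and dendritic cell markers 2.94 to 3.30 and 2.94 to 3.23. Cd74, the invariant chain of MHC class II, had 7.66, 8.66 and 8.27 in Bcl6yfp/+ cells and 8.60, 9.54 and 8.05 in Bcl6+/+ cells. The brightest probe set of Ighm, the IgM heavy chain, had 11.22, 11.44 and 11.65 in Bcl6yfp/+ cells and 12.61, 11.65 and 11.65 in Bcl6+/+ cells. Both were thus well above the floor on all 6 arrays. Jchain, the joining chain of secreted antibodies, had 7.54, 3.25 and 2.19 in Bcl6yfp/+ cells and 3.38, 4.01 and 2.25 in Bcl6+/+ cells. Igk, chosen after its values were seen, was at 8.99 on Bcl6+/+ number 2 and at 2.36 or below on the other 5 arrays. Another Ighm probe set had 2.33, 9.62 and 6.06 in Bcl6yfp/+ cells and 7.04, 10.21 and 6.28 in Bcl6+/+ cells, and was highest on number 2 of either genotype. Bcl6+/+ number 2 also had the highest Ifng (5.64) and Prdm1 (4.36) of the 6. The part of these transcripts in the values above was not tested.

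Genotype and day were partly aligned, since no Bcl6yfp/+ array was labelled day 10. Among the reporter-sorted arrays, limma called 171 genes outside the sex-linked list higher at day 10 and 456 lower. Between Bcl6+/+ number 2 (day 10) and number 3 (day 7), the median difference was -0.01 over the first list and -0.06 over the second. The 171 genes averaged 6.74, 6.92 and 7.13 on the Bcl6yfp/+ arrays and 7.85, 7.43 and 7.41 on the Bcl6+/+ arrays, with the day 7 array of Bcl6+/+ at 7.41. Gal, which encodes the neuropeptide galanin and was chosen for its day difference of 10.08, stood at 2.30, 2.18 and 2.16 in Bcl6yfp/+ cells and at 4.24, 2.48 and 2.27 in Bcl6+/+ cells. The median genotype difference of the 171 genes was -0.56, against -0.26 over all genes, and -0.19 over numbers 2 and 3. Of the 171 genes 10 had an unadjusted limma p under 0.05, beside 287 of all 9930 genes (2.89%). The 456 genes had a median genotype difference of -0.28, and 0.03 over numbers 2 and 3. Of the 456 genes 1 had an unadjusted limma p under 0.05. The part of day in the genotype differences was not tested. In those arrays day also went with sex-linked transcripts, with Xist lower by 11.72 log2 at day 10, so both cannot be told apart there. All 6 arrays compared here had Xist at 2.15 or below and Eif2s3y, which is Y-linked, at 12.99 or above.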

How the data were processed

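The authors deposited log2 expression values per probe set of an Affymetrix array. They were made with GCRMA, per the submitters' processing notes, whose version is not given in the sources used here. The members and gene lists were chosen with earlier results of these data known. Of 45101 probe sets (64 controls), 34945 carried 1 gene symbol, 932 several and 9160 none, and 34741 matched RefSeq (GRCm38.p6) by identifier. Probe sets at log2 4 or more on at least 2 of the 19 arrays were kept, and the brightest stood for each of 9930 genes. Shared distributions (mean gap between sorted values under 0.06 log2) marked 7 sets of jointly normalized arrays. Group means of all 19 arrays were fitted with limma 3.58.1 in R 4.3.3, with Benjamini-Hochberg adjustment over all genes. The fit had first been tested on simulated data with independent scatter around group means. Those data held no array-wide shift and no normalization sets, so the fit was not tested under either. All adjusted p-values are limma's, errors are standard errors (SE), and intervals are 95%.

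Genes were named by rule: Bcl6, Cxcr5 and Pdcd1, up to 12 genes of lowest p in each direction whose groups did not overlap and whose sign held in numbers 2 and 3, and the 2 members of each list with the largest difference. Further list members were named for their known roles after their values were seen, and undescribed symbols were only counted. Replicate numbers come from the sample titles. Deviations of same-numbered arrays from their group means correlated at 0.64, 0.596 and 0.572, which meets the rule for pairing, although the number 1 arrays lie in different sets and numbers 2 and 3 crossed between genotypes gave 0.555 and 0.427. The main fit has no replicate block, which is an alternative. In that alternative each number had an effect shared by all groups, so a pairing of the Bcl6yfp/+ and Bcl6+/+ arrays alone was not fitted. Without number 1, number 2 minus number 3 correlated at 0.31 between genotypes.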

Additional observations from a re-analysis of the deposited data

How the results depend on the processing

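Under all alternatives, 0 genes were called, apart from 4 with the normalization set as a block. The replicate block called 0 genes, with 320 at an unadjusted p under 0.05 against 287, a Bcl6 difference of -0.20 and 4899 genes bounded within 2-fold, and it changed no other call. Single probe sets, an alternative chosen after seeing the data, also gave 0 calls without a block. With the normalization set as a block, 7 of 18626 single probe sets were called. The count of genes bounded within 2-fold, 4604, was 2179 with the spread of the 6 arrays only, 1403 on day 7 arrays, 2594 with day as a covariate, 8441 with the set as a block, 8791 on numbers 2 and 3 alone, 12710 of 18193 without a filter on low values, and 2220 to 5548 when 1 array was left out. It was 2220 without Bcl6yfp/+ number 3 and 2373 without Bcl6yfp/+ number 2, fits in which number 1 weighs more. With numbers 2 and 3 and the spread of all groups, chosen after seeing the data, it was 6521.

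The Bcl6 difference of -0.20 ran from -0.35 to 0.043 when 1 array was left out, and turned to 0.064 on numbers 2 and 3, alone, with the set as a block or with the spread of all groups. It was 0.003 after quantile normalization, 0.082 after centring, 0.153 for the mean of its probe sets, with 0.043 being the value without Bcl6yfp/+ number 1. Leaving out 1 array gave Cxcr5 differences of -0.40 to 0.06 and Pdcd1 differences of -0.27 to 0.05. Also reversed were Pdcd1 (0.08 after quantile normalization, 0.18 after centring, 0.05 without Bcl6yfp/+ number 1), Cxcr5 (0.04 after centring, 0.06 without that array), Swap70 (-0.12 with day as a covariate), and Lamtor1 (-0.04) and Star (-0.21) for the mean of probe sets. None of these values passed. The low level of Bcl6yfp/+ number 1 is part of each all-array value.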
